A study of Mus musculus with 9 samples.

Results

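Tfrc and B2m are a pair of cell surface genes that the array carries as reference genes, each with 1 probe printed on 20 spots of every array. They were found among the 15 reference genes of the array by matching the RefSeq identifier of each repeated reference probe to a mouse gene symbol, and are 2 of the 59709 transcript probes. The rule used no measured value. The array was a single-colour Agilent lncRNA and mRNA array, hybridised with RNA of primary cortical neurons from gestation day 15 Swiss albino mouse embryos. There were 9 arrays, 1 for each condition. Maturing neurons, cultured with the B27 supplement, were collected on Day 2 and Day 4, and again on Day 6 and on Day 8. Day 6 cultures were exposed to oxygen-glucose deprivation (OGD, an ischaemia model in which the cells are kept in glucose-free saline at low oxygen) for 2, 4, 6 or 8 hr, then returned for 24 hr to medium with glucose but without B27, here called reperfusion. The 0 hr OGD control went through the same handling and the same 24 hr reperfusion without the deprivation, so all 5 OGD arrays share the reperfusion and the loss of B27, which none of the Day arrays had. According to the methods, each Day array and each of the 0, 2 and 4 hr OGD arrays received a pool of RNA from 4 independent experiments. Whether the 6 and 8 hr RNA was pooled is not given in the sources used here. With 1 array per condition no difference between conditions could be tested, and the errors below are the spread of repeated spots on an array, which is technical and leaves out the spread between cultures.

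Tfrc encodes transferrin receptor 1, which binds iron-loaded transferrin at the plasma membrane and carries it into endosomes, the main route by which neurons and dividing cells take up iron. Its mRNA is stabilised by iron regulatory proteins when iron inside the cell is low, and the gene is a known target of the hypoxia-inducible factors. B2m encodes beta-2-microglobulin, the small invariant subunit that major histocompatibility complex (MHC) class I heavy chains need to fold and reach the surface. B2m is induced by interferons in many cell types, and MHC class I molecules have been linked to synapse remodelling in cortical neurons. Both genes are widely used as reference genes.

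The promoter windows of both genes were read from RefSeq (GRCm38.p6, plus strand), from 250 bases before to 50 bases after each annotated start, and the stretches shown are those with a match to the short motif of a known response of the gene. The motif ACGTG, the core of the hypoxia response element, was searched on both strands. It was found 1 time in the Tfrc windows, beginning at position -2 relative to the upstream start, at chr16:32608882-32608911. The motif GAAANNGAAA, the core of the interferon response element, was found 1 time in the B2m window, at position -139, at chr2:122147538-122147567. Capitals mark the matched letters.
Tfrc: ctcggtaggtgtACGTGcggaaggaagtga
B2m: ataagaacatGAAACTGAAAatgggaaagt
ACGTG was present in 19.6% of 32851 promoter windows of the same length and GAAANNGAAA in 3.44%, so the first match is a common one. The B2m window did not hold the letters ACGTG and the Tfrc windows did not hold GAAANNGAAA. These matches describe the sequence only, and no binding at them was measured here.

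Both probes gave a usable signal on every array. All 20 spots of each gene were well above background and 0 were saturated on each of the 9 arrays. The median background-corrected signal of Tfrc ran from 832 on the 8 hr OGD array to 3164 on the 0 hr OGD array. Relative to the 95th percentile of the negative control spots on the same array, it ran from 12.9 times on Day 4 to 159 times at 6 hr OGD. For B2m the median signal ran from 381 on Day 2 to 680 on the 4 hr OGD array, and the ratio to that percentile from 4.70 on Day 4 to 40.4 at 6 hr OGD. Day 4 was an array on which 54.4% of the negative control spots were called well above background, against 0.833% to 9.58% on the other arrays. The files record 1 scan for Day 2 and Day 4 and another for the remaining arrays, so Day 6 and Day 8 are compared with Day 2 across scans. The labelled cell type could not be set against its markers, because 0 of the 20 marker genes of neurons and other brain cells had a probe with a symbol in the sources used here. In RNA from a whole culture, fewer cells of a type and less RNA per cell cannot be told apart.

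Tfrc had, in the main setting, its highest signal on the 0 hr OGD array and its lowest on Day 4, while relative to the other reference genes it was highest at 6 hr OGD and lowest on Day 6. On the log2 scale after quantile normalization over the 9 arrays, the mean over spots was 10.54 ± 0.074 (SD, 20 spots) on Day 2, 10.15 ± 0.11 (20 spots) on Day 4, 10.18 ± 0.083 (19 spots) on Day 6 and 10.30 ± 0.10 (20 spots) on Day 8. It was 10.88 ± 0.12 (20 spots) at 0 hr OGD, 10.41 ± 0.11 (20 spots) at 2 hr, 10.36 ± 0.14 (20 spots) at 4 hr, 10.66 ± 0.082 (20 spots) at 6 hr and 10.37 ± 0.068 (19 spots) at 8 hr. The 9 means spanned 0.73 on the log2 scale in this main setting, 1.95 with arrays scaled to their 75th percentile and 1.21 when centred on bright probes, those well above background throughout. In descending order the means at 0 hr OGD, 6 hr OGD and on Day 2 were each separated from the next lower one by more than the SD of the difference between matched spots. The means at 2, 8 and 4 hr OGD and on Day 8 followed one another within that SD, as did Day 6 and Day 4 at the low end, while Day 8 and Day 6 were separated by more than it.

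**Figure D1:**
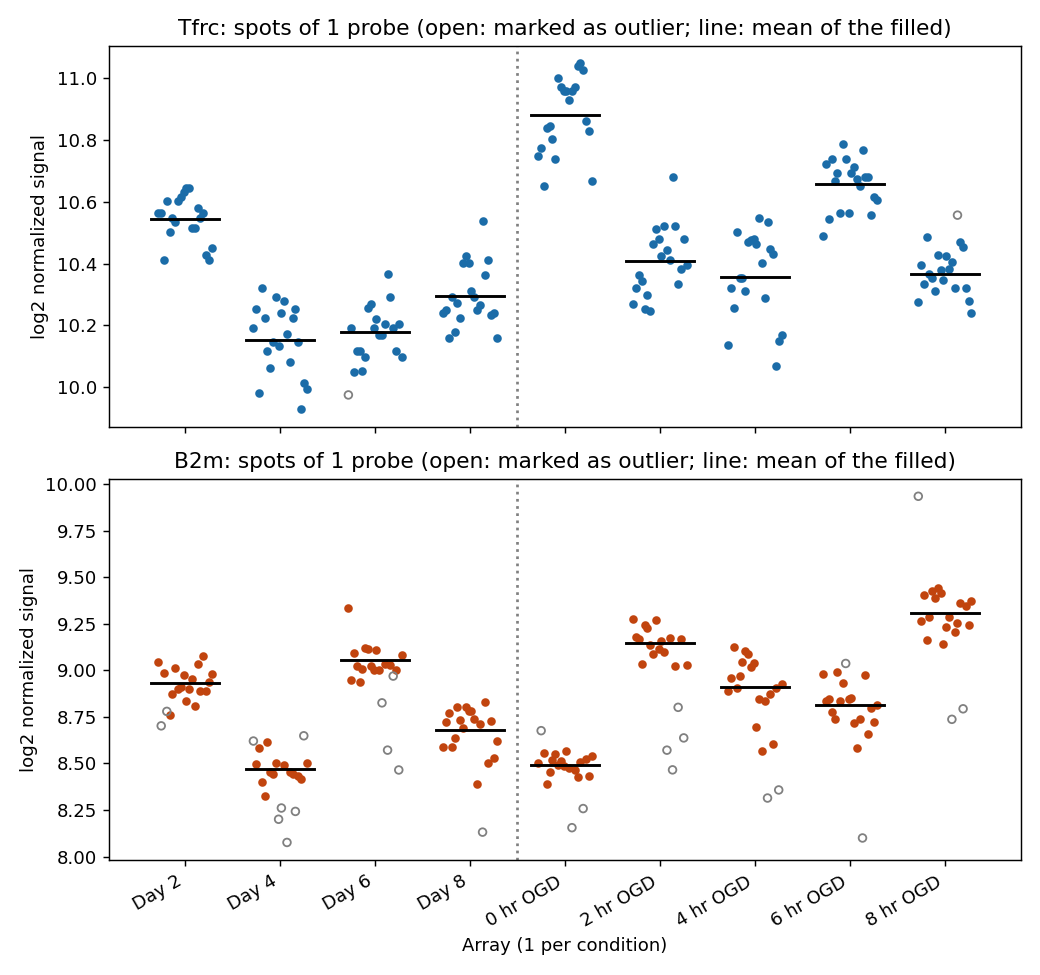
Log2 quantile-normalized signal of each of the 20 spots of Tfrc (top) and B2m (bottom) on each of the 9 arrays, with 1 array per condition. Filled points are the spots used, open points are spots marked as outliers, and the black line is the mean of the filled points. In this main setting Tfrc was highest at 0 hr OGD (10.88) and B2m at 8 hr OGD (9.31), while B2m was highest on Day 6 with the 75th percentile or centred on bright probes.

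B2m had, in the main setting, its highest signal on the 8 hr OGD array, and its lowest on Day 4 and at 0 hr OGD. With the 75th percentile and when centred on bright probes its level was highest on Day 6. The mean was 8.93 ± 0.085 (SD, 18 spots) on Day 2, 8.47 ± 0.072 (14 spots) on Day 4, 9.05 ± 0.093 (16 spots) on Day 6 and 8.68 ± 0.12 (19 spots) on Day 8. It was 8.49 ± 0.050 (17 spots) at 0 hr OGD, 9.15 ± 0.082 (16 spots) at 2 hr, 8.91 ± 0.16 (18 spots) at 4 hr, 8.81 ± 0.11 (18 spots) at 6 hr and 9.31 ± 0.095 (17 spots) at 8 hr. The means spanned 0.84, and 1.50 with the 75th percentile. Relative to the other reference genes they spanned 1.30, with 0 hr OGD the lowest. Neighbours in the order that were within the SD of the difference between matched spots were 2 hr OGD and Day 6, Day 2 and 4 hr OGD, 4 hr and 6 hr OGD, and 0 hr OGD and Day 4, and the remaining neighbours were separated by more than it. The 0 hr OGD array was thus, in the main setting, the highest of the 9 for Tfrc and, with Day 4, among the lowest for B2m.

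The spread of the spots differed between the genes in one respect, the number of spots marked as outliers by the scanner software. For Tfrc 2 of 180 spot values (1.11%) were marked, and for B2m 27 of 180 (15.0%), against 2 to 15 marked values for each of the 11 other reference genes that were well above background on all arrays. Of the 27 B2m values, 22 lay below the median of the gene on their array. They came from 11 of the 20 positions, and 4 positions marked on 3 or more arrays held 18 of them. These 4 lay at row 227 and column 118, row 283 and column 83, row 306 and column 135, and row 348 and column 72. On the arrays of the scan that holds Day 6, Day 8 and OGD their mean deviations from the array median were -0.36, -0.44, -0.25 and -0.28. On Day 2 and Day 4 the mean deviations of the same positions were -0.16, 0.062, 0.078 and 0.12, so 3 of these positions had a mean deviation below 0 in that scan only. A cause for these low spots was not tested.

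**Figure D2:**
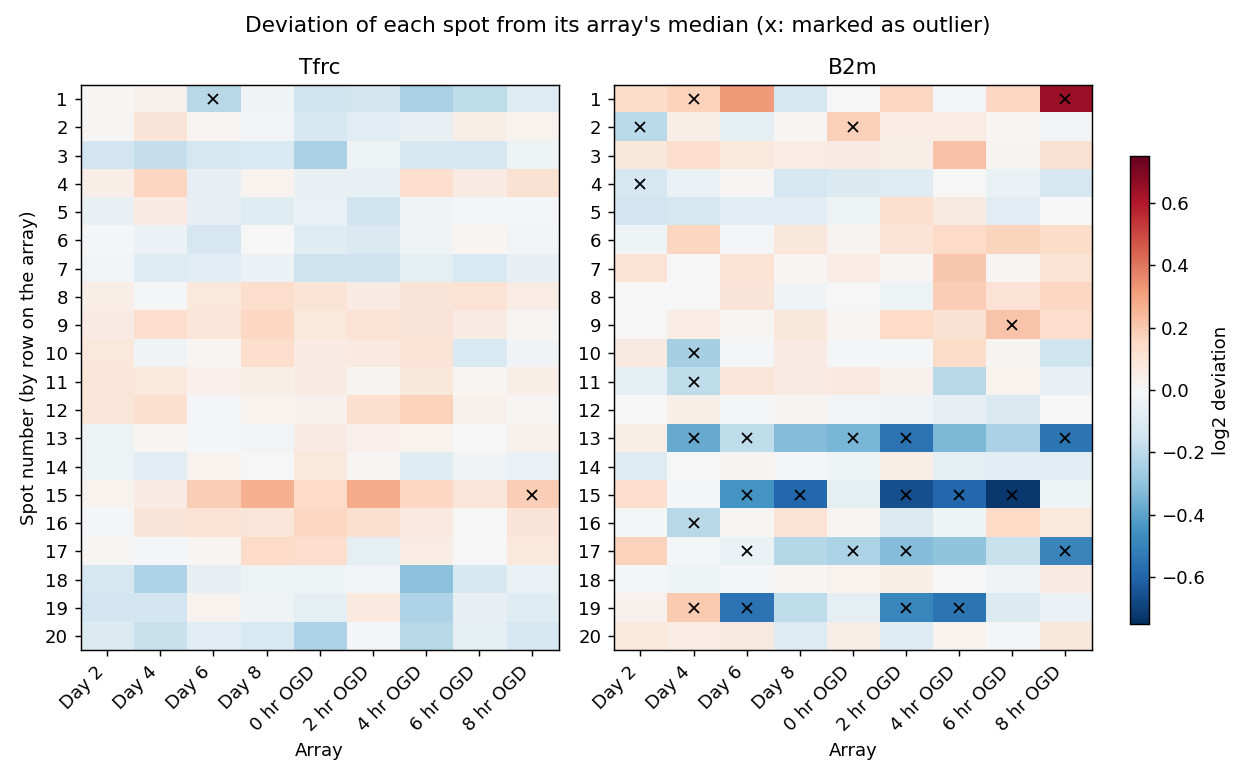
Deviation of each spot's log2 normalized signal from the median of its gene on the same array, for the 20 spots of Tfrc (left) and B2m (right), numbered by row on the array, across the 9 arrays. Red is above and blue below the median, and crosses mark outlier spots, of which B2m has 27 and Tfrc 2.

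Without the marked spots the SD over spots had a median over the arrays of 0.100 for Tfrc and 0.093 for B2m, within the 0.061 to 0.17 of the 11 other reference genes. With them, the B2m SD at 8 hr OGD was 0.24 in place of 0.095, and that on Day 6 was 0.19 in place of 0.093. The B2m mean moved from 9.31 to 9.29 at 8 hr OGD. At 2 hr OGD it moved from 9.15 to 9.04, by more than the SD over spots of 0.082 there. The B2m difference of 2 hr from 0 hr OGD was then 0.57 in place of 0.66, and that of Day 6 from Day 2 was 0.072 in place of 0.12. The signal error that the scanner software models for a single spot was 0.14 on the log2 scale for Tfrc and from 0.14 to 0.15 for B2m, which is of the same order as the spread observed.

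The first comparison asked how both genes changed as the neurons matured, with the signal log ratio (SLR) being the difference in log2 normalized signal from Day 2. A size over 1 in either direction is taken as a change. In the main setting neither gene passed it on any day, and with arrays scaled to their 75th percentile Tfrc passed it on Day 4, at -1.05. Of the probes well above background on both arrays, 34.4% passed it on Day 4, 9.85% on Day 6 and 10.5% on Day 8 in the main setting. The share with the 75th percentile was not computed.

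Tfrc was lower than Day 2 on all 3 later days in the main setting. Its SLR was -0.39 ± 0.070 (SD, 20 matched spot positions) on Day 4, -0.37 ± 0.083 (19 positions) on Day 6 and -0.25 ± 0.078 (20 positions) on Day 8, although with the 75th percentile the value on Day 4 was -1.05 and those on Day 6 and Day 8 turned to 0.17 and 0.17. In the main setting the signal was lower at every matched position on each day, and these repeats of the same probe share any array-wide shift. The spots of Day 4 and Day 6 did not overlap those of Day 2, and those of Day 8 did. How often the spots of the other reference genes stood clear was not counted, here or in the comparisons below. The median of all probes compared moved by -0.37 (Day 4), 0.081 (Day 6) and 0.0029 (Day 8). In this main setting the Tfrc value on Day 4 was close to the median probe and the later values were below it. With the 75th percentile the median probe moved by -0.49, 0.26 and 0.15 on the 3 days, so that Tfrc was below it on Day 4 and close to it on Day 8. From Day 6 to Day 8, both in the same scan, Tfrc was higher by 0.12 ± 0.059 (SD, 19 positions), a value that came to -0.0022 with the 75th percentile and -0.0002 relative to the other reference genes. In that comparison 3.12% of probes passed an SLR of 1.

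B2m moved in both directions. Its SLR was -0.46 ± 0.11 (SD, 12 matched positions) on Day 4, 0.12 ± 0.073 (14 positions) on Day 6 and -0.25 ± 0.17 (17 positions) on Day 8, which became -0.89, 0.61 and 0.12 with the 75th percentile. When arrays were centred on bright probes the Day 6 value was 0.36. In the main setting all matched positions were lower on Day 4, higher on Day 6 and lower on Day 8, and they too share any array-wide shift. Only the Day 4 spots stood clear of the Day 2 spots, and the Day 4 value lay near the median probe in the main setting, and below the median of -0.49 with the 75th percentile. Between Day 6 and Day 8 B2m was lower on Day 8 by -0.37 ± 0.14 (SD, 16 positions), with no overlap of the spots, and 10 of the 11 other reference genes had a more positive difference. This value stayed negative in each of the settings tried, from -0.49 to -0.30.

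The second comparison asked how both genes responded to the deprivation, relative to the 0 hr OGD array. In the main setting Tfrc was lower and B2m higher on each of the 4 OGD arrays, and relative to the other reference genes the Tfrc differences at 2, 4 and 6 hr turned to 0.044, 0.0056 and 0.12. The Tfrc SLR was -0.47 ± 0.10 (SD, 20 positions) at 2 hr, -0.52 ± 0.11 (20 positions) at 4 hr, -0.22 ± 0.10 (20 positions) at 6 hr and -0.51 ± 0.093 (19 positions) at 8 hr. With the 75th percentile these values became -0.99, -0.88, -0.031 and -0.96. Tfrc was lower, in the main setting, at every matched position on each array. Its spots stood clear of those at 0 hr for 4 and 8 hr, and overlapped for 2 and 6 hr, with no count made for the other reference genes. In the main setting neither gene passed an SLR of 1 in either direction, a size passed by 20.7%, 15.6%, 7.85% and 27.2% of probes at 2, 4, 6 and 8 hr. Relative to the other reference genes B2m passed it at 2 hr (1.17) and 8 hr (1.30). The share of probes past 1 in that setting was not computed. That scaling shifts all probes of a comparison alike, and 73.6% and 74.9% of probes had a lower difference than B2m at 2 and 8 hr. A difference at least as large as that of Tfrc was seen in 60.8%, 49.3%, 64.0% and 63.9% of the probes compared at 2, 4, 6 and 8 hr.

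The B2m SLR was 0.66 ± 0.090 (SD, 15 matched positions) at 2 hr, 0.42 ± 0.12 (15 positions) at 4 hr, 0.32 ± 0.086 (15 positions) at 6 hr and 0.81 ± 0.080 (16 positions) at 8 hr. B2m was higher, in the main setting, at every matched position on each array, and its spots overlapped those at 0 hr only for 4 hr. In the main setting both genes had their smallest difference at 6 hr, whereas with the 75th percentile the B2m differences were 0.18, 0.062, 0.39 and 0.39 at 2, 4, 6 and 8 hr, the smallest of them at 4 hr. Centred on bright probes the smallest B2m difference was also at 4 hr, at 0.23. B2m stayed above its 0 hr level in each of the settings tried, with a lowest value of 0.062 at 4 hr with the 75th percentile and a highest of 1.30 at 8 hr relative to the other reference genes. A difference at least as large as that of B2m was seen in 44.9%, 58.7%, 51.2% and 40.5% of the probes compared at 2, 4, 6 and 8 hr.

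**Figure D3:**
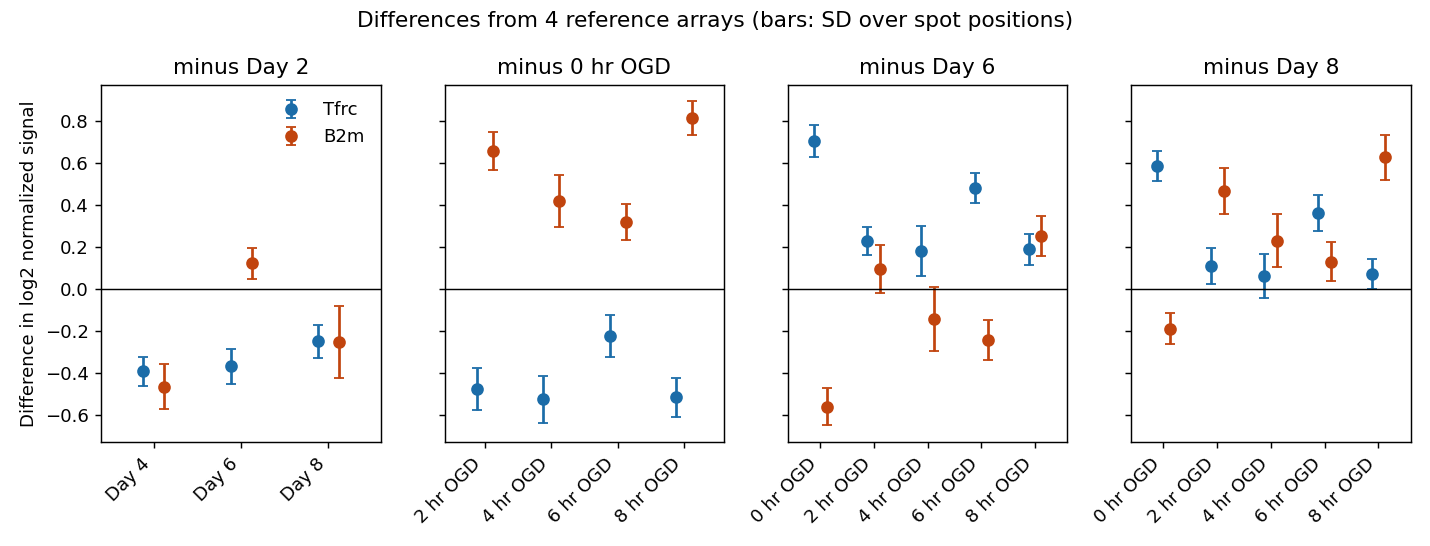
Difference in log2 normalized signal of Tfrc (blue) and B2m (orange) between each array and the reference array named above the panel. Points are differences of spot means and bars are the SD over matched spot positions on the same pair of arrays. In this main setting all Tfrc points relative to 0 hr OGD lie below 0 and all B2m points above it, and relative to Day 8 both genes lie above 0 on the 2 to 8 hr arrays.

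Set among the reference genes in the differences from 0 hr OGD, Tfrc lay in the middle of the group and B2m towards its upper end. Against Day 2 the counts differed, with Tfrc above 3, 2 and 3 of the 11 genes on Day 4, Day 6 and Day 8 and B2m above 3, 6 and 3. The median difference of the 11 other reference genes from 0 hr OGD was -0.52, -0.53, -0.34 and -0.49 at 2, 4, 6 and 8 hr. Tfrc lay above 6, 6, 6 and 4 of these genes at 2, 4, 6 and 8 hr, and relative to their median its differences were 0.044, 0.0056, 0.12 and -0.026, so its difference from 0 hr was close to the median of these genes. B2m lay above 9, 9, 10 and 9 of them, and relative to the same median its differences were 1.17, 0.95, 0.66 and 1.30. The genes above B2m at 2, 4 and 8 hr were Gk and G6pd2, a glycerol kinase and a glucose-6-phosphate dehydrogenase, with differences from 0 hr that reached 1.35 at 8 hr. The median of all probes moved by 0.061, 0.012, 0.066 and 0.16, while the median of the reference genes was negative at each time.

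**Figure D4:**
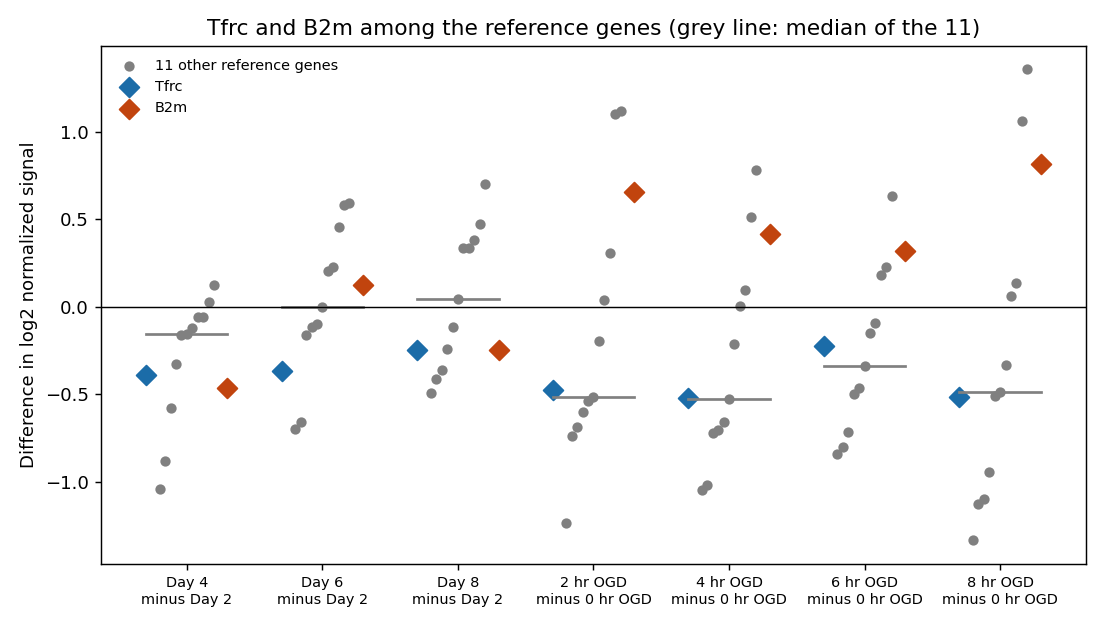
Difference in log2 normalized signal from Day 2 or from 0 hr OGD for Tfrc (blue diamonds), B2m (orange diamonds) and the 11 other reference genes that were well above background on all arrays (grey points, with their median as a line). In the OGD comparisons Tfrc lies near the grey median and B2m above 9 or 10 of the 11 genes.

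The contrast between the genes under OGD, taken from 0 hr OGD, kept its sign and moved little between the settings tried. The B2m difference from 0 hr OGD exceeded that of Tfrc by 1.13, 0.94, 0.54 and 1.33 at 2, 4, 6 and 8 hr. Over the settings tried it ranged from 1.04 to 1.18 at 2 hr, from 0.90 to 0.99 at 4 hr, from 0.42 to 0.57 at 6 hr and from 1.18 to 1.38 at 8 hr. Its sign depended on the reference array. In the main setting the contrast at 2, 4, 6 and 8 hr was -0.13, -0.32, -0.72 and 0.064 against Day 6. Against Day 8 it was 0.36, 0.17, -0.23 and 0.56. For the 0 hr array itself it was -1.26 against Day 6 and -0.77 against Day 8. A constant added to all probes of an array cancels in this contrast by construction. On these arrays the differences of the genes were unequal, and the contrast does not show which of them changed. With 1 array per condition it was not tested. Between Day 2 and the later days the contrast came to -0.072 (Day 4), 0.49 (Day 6) and -0.0022 (Day 8). On Day 4 and Day 8 the contrast was thus near 0 in the main setting, and on Day 4 it was 0.16 with the 75th percentile.

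**Figure D5:**
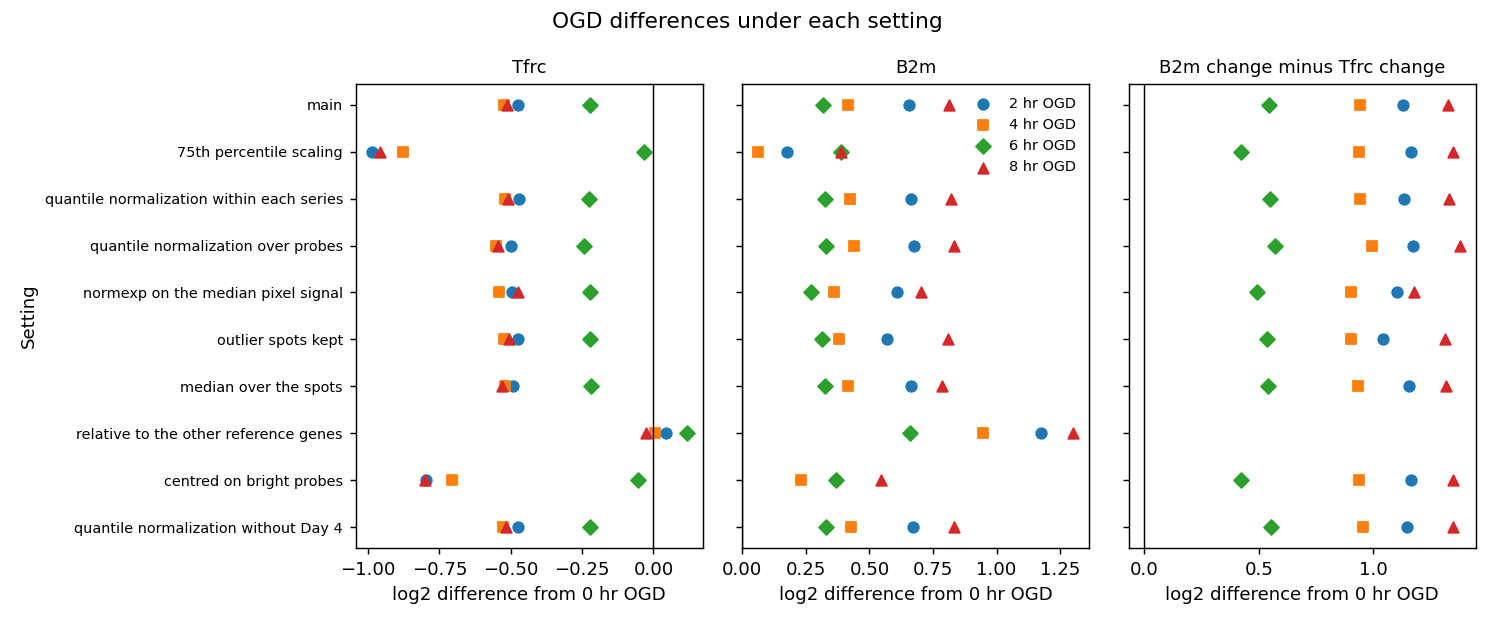
Difference from 0 hr OGD in log2 signal at 2, 4, 6 and 8 hr OGD (symbols) for Tfrc (left), B2m (middle) and the B2m difference minus the Tfrc difference (right), in the main setting and under each alternative (rows). B2m stays above 0 in every row. The contrast stays above 0 in each setting run for it, which leaves out scaling to the other reference genes. Tfrc reaches 0.12 relative to the other reference genes. The horizontal axes differ between panels.

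Because all 4 differences above share the 0 hr OGD array, the same OGD arrays were also set against Day 6, the age at which the deprivation began, and Day 8. The 0 hr array itself differed from both. Tfrc was higher at 0 hr OGD than on Day 6 by 0.70 ± 0.075 (SD, 19 positions) and than on Day 8 by 0.59 ± 0.072 (20 positions), with no overlap of the spots. It stayed higher in each of the settings tried, from 0.41 to 0.74 against Day 6 and from 0.39 to 0.73 against Day 8, and against Day 8 it exceeded all 11 other reference genes. B2m was lower at 0 hr OGD by -0.56 ± 0.088 (SD, 15 positions) than on Day 6 and by -0.19 ± 0.074 (16 positions) than on Day 8, and it stayed lower in each setting, from -0.85 to -0.51 and from -0.38 to -0.015. An SLR of 1 was passed by 9.53% of probes against Day 6 and by 2.84% against Day 8. The 0 hr array and the Day arrays differ in reperfusion, in B27 and in time in culture, and these cannot be told apart.

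Against Day 6 the direction of Tfrc was the opposite of that against 0 hr OGD. The difference was 0.23 ± 0.066 (SD, 19 positions) at 2 hr, 0.18 ± 0.12 (19 positions) at 4 hr, 0.48 ± 0.072 (19 positions) at 6 hr and 0.19 ± 0.073 (18 positions) at 8 hr, of which those at 2, 4 and 8 hr turned negative with the 75th percentile (-0.26, -0.15 and -0.23) and when arrays were centred on bright probes (-0.11, -0.020 and -0.11). Relative to the other reference genes the Tfrc value at 2 hr was 0.069. For Tfrc the 6 hr array stayed above Day 6 in each of the settings tried, from 0.48 to 0.70. Its spots did not overlap those of Day 6, and its difference exceeded that of all 11 other reference genes. B2m differed from Day 6 by 0.095 ± 0.11 (SD, 16 positions) at 2 hr, -0.14 ± 0.15 (16 positions) at 4 hr, -0.24 ± 0.094 (15 positions) at 6 hr and 0.25 ± 0.095 (15 positions) at 8 hr. Its spots overlapped those of Day 6 on all 4 arrays, and at 2 and 4 hr the difference was within the SD in the main setting. These differences were -0.33 at 2 hr and -0.44 at 4 hr with the 75th percentile, and centred on bright probes -0.18 and -0.32, each beyond the SD. The 6 hr value was -0.12 with the 75th percentile. The 8 hr value turned to -0.12 with the 75th percentile and to -0.0027 when centred on bright probes. Relative to the other reference genes the B2m value at 2 hr was -0.066. Probes that passed an SLR of 1 against Day 6 made up 5.45%, 6.34%, 4.17% and 10.8% at 2, 4, 6 and 8 hr, and neither gene was among them.

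Against Day 8 both genes were higher on the OGD arrays in the main setting. Tfrc was higher than Day 8 by 0.11 ± 0.085 (SD, 20 positions) at 2 hr, 0.062 ± 0.10 (20 positions) at 4 hr, 0.36 ± 0.086 (20 positions) at 6 hr and 0.071 ± 0.070 (19 positions) at 8 hr. The 6 hr value stayed positive in each setting, from 0.35 to 0.70, and the others turned negative with the 75th percentile and with that centring. Relative to the other reference genes the Tfrc differences at 2, 4 and 8 hr were 0.29, 0.25 and 0.22. B2m was higher than Day 8 by 0.47 ± 0.11 (SD, 16 positions) at 2 hr, 0.23 ± 0.13 (18 positions) at 4 hr, 0.13 ± 0.095 (18 positions) at 6 hr and 0.63 ± 0.11 (16 positions) at 8 hr. It stayed higher on all 4 arrays in each of the settings tried, with the lowest value, 0.047, at 4 hr, and its spots stood clear of those of Day 8 at 2 and 8 hr. Probes past an SLR of 1 against Day 8 made up 7.97%, 8.03%, 5.48% and 10.4% at 2, 4, 6 and 8 hr, and neither gene was among them.

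The genes took opposite directions, in the main setting, in 4 of 4 comparisons from 0 hr OGD, 2 of 4 from Day 6, 0 of 4 from Day 8 and 1 of 3 from Day 2, where the comparisons of each set share their reference array and are not independent. With the 75th percentile these counts were 4 of 4, 1 of 4, 3 of 4 and 0 of 3, and relative to the other reference genes 1 of 4, 3 of 4, 0 of 4 and 1 of 3. Centred on bright probes they were 4 of 4, 1 of 4, 3 of 4 and 1 of 3. In the main setting 8 hr had the highest B2m level of the OGD arrays and 6 hr the highest Tfrc level after 0 hr, while with the 75th percentile B2m at 6 and 8 hr lay 0.39 and 0.39 above 0 hr. Over the 2 to 8 hr arrays the means spanned 0.30 for Tfrc and 0.50 for B2m in the main setting, and 0.96 and 0.33 with the 75th percentile. Centred on bright probes the spans were 0.75 and 0.32, and relative to the other reference genes 0.14 and 0.64.

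The genes whose pattern was most like each member were sought among the 45 named probes that were well above background on all arrays, by the root mean square difference of profiles centred on their own mean over the 9 arrays. For Tfrc the closest were Tsnax at 0.175, Tuba1b at 0.215 and Zfp131 at 0.222, where a flat profile would lie at 0.220. Zfp131 was thus no closer to Tfrc than a flat profile, and Tuba1b only slightly closer. Tsnax encodes a partner of the RNA-binding protein translin, and Tuba1b is an alpha-tubulin gene. In the main setting, in which these profiles were compared, both also had their highest level at 0 hr OGD, while Zfp131 peaked on Day 6. For B2m the closest were Gm20738 at 0.19, Ulbp1 at 0.20 and Gk at 0.20, where a flat profile would lie at 0.27. All 3 shared with B2m a maximum at 8 hr OGD in the main setting, and Gk and Gm20738 were also low at 0 hr OGD. As the genes were picked for likeness over these same arrays, shared high and low points follow from the choice. Others of the 45 candidates shared the peaks too, such as Gm21953 at 8 hr and Ppia at 0 hr OGD. B2m and Tfrc themselves lay 0.38 apart. Only 116 of the 59709 transcript probes could be given a symbol from the sources used here, and genes of iron handling and of MHC class I (0 of 12 matched in each list) were not analysed here.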

How the data were processed

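RNA of mouse cortical neurons was measured on 9 single-colour arrays, 1 per condition. The authors deposited Feature Extraction 11.0.1.1 output with the background-corrected intensity, flags and grid position of 62513 spots per array. They also deposited a table of quantile-normalized intensity for 29929 probes, which holds neither of the reference probes of Tfrc and B2m. Spots that the scanner software labels as controls were left out, and the negative control probes, which it does not so label, stayed in. Log2 intensity was quantile-normalized over the 9 arrays after the methods. Repeated spots were then averaged without those marked as outliers. Differences are of spot means, with the SD over positions used on both arrays. Probes compared were well above background on both arrays. Gene names came from RefSeq (GRCm38.p6), and the files' own build is mm9, so no genome coordinates of the probes are given. Analysis used Python 3.11.15, numpy 2.4.6, pandas 2.3.3, R 4.3.3 and limma 3.58.1 (normexp, offset 50). The normalization was tested on simulated data. No test between conditions was run, and the number of arrays limits the precision. Both genes, the lists, the motifs and the 3 most similar genes per member follow rules chosen with earlier results of these data known. Alternatives were 75th percentile scaling, quantile normalization within each series or over probes, normexp on the median pixel signal, outlier spots kept, the median over spots, and scaling to the 11 other reference genes. Centring on bright probes and normalization without Day 4 were added after seeing the data.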

Additional observations from a re-analysis of the deposited data

How the results depend on the processing

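Of 357 values recomputed under an alternative, 268 moved by less than the SD over matched spots, 69 moved by more and 20 with a main value above that SD turned their sign. No value moved by more with the median over spots, with outlier spots kept, with quantile normalization over probes or within each series, or without Day 4. All but 3 of the others came from the scaling or centring. With the 75th percentile, which shifted the median of all probes by up to 0.18, Tfrc differed from Day 2 by -1.05 on Day 4, 0.17 on Day 6 and 0.17 on Day 8, and from 0 hr OGD by -0.99, -0.88, -0.031 and -0.96 at 2, 4, 6 and 8 hr. B2m then differed from Day 2 by -0.89, 0.61 and 0.12, and from 0 hr by 0.18, 0.062, 0.39 and 0.39 at 2, 4, 6 and 8 hr, and the contrast of B2m with Tfrc on Day 4 was 0.16. Against Day 6 and Day 8, Tfrc then came to -0.26 and -0.26 at 2 hr and -0.23 and -0.23 at 8 hr, to -0.15 against Day 6 at 4 hr, and to -0.0022 for Day 8 minus Day 6, and B2m at 8 hr to -0.12 against Day 6. Centred on bright probes (added after seeing the data), Tfrc differed from Day 2 by -0.61, -0.090 and -0.051 and from 0 hr by -0.80, -0.71, -0.053 and -0.80, B2m by 0.36 on Day 6 and by 0.37, 0.23 and 0.55 at 2, 4 and 8 hr, and the Day 4 contrast was 0.16. Tfrc then came to -0.11, -0.020 and -0.11 against Day 6 at 2, 4 and 8 hr and to -0.15 and -0.15 against Day 8 at 2 and 8 hr, and B2m to -0.0027 against Day 6 at 8 hr. Relative to the other reference genes, Tfrc differed by -0.24 on Day 4, by 0.044, 0.0056, 0.12 and -0.026 at 2, 4, 6 and 8 hr, and by -0.0002 for Day 8 minus Day 6, and B2m by -0.31 on Day 4 and by 1.17, 0.95, 0.66 and 1.30 at 2, 4, 6 and 8 hr. With normexp, B2m at 8 hr was 0.70, its contrast with Tfrc 1.18 and Tfrc at 8 hr against Day 6 0.27. The cause was not tested. The authors' table holds neither probe, so that alternative was not run. No paired analysis was possible because there is 1 array per condition and no test was run, and for the same reason no replicate could be left out.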
